A study of Mus musculus with 60 samples.

Results

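The subcortical maternal complex genes are 7 genes of the deposited expression table, Nlrp5, Ooep, Tle6, Khdc3, Padi6, Nlrp2 and Zbed3, taken as the rows whose Ensembl identifiers carry these symbols. They are 7 of 27238 genes, and all were found. Expression was measured by RNA-seq of single mouse embryos and of donor cells in 60 libraries, 3 for each of 20 groups, and is given as RPKM (reads per kilobase of exon, scaled to the reads on genes of each library). The unit puts genes of different exon length on 1 scale, and how well levels compare between genes was not tested. In vivo embryos were collected from superovulated C57BL/6 females mated with DBA2 males. NTC embryos were reconstructed by nuclear transfer (NT) of a cumulus cell (CC) nucleus into an enucleated metaphase II oocyte, and NTM embryos in the same way with the nucleus of a mouse embryonic fibroblast (MEF). All groups had the BDF1 background (C57BL/6 × DBA2). The oocyte cytoplasm was from BDF1 females in both NT groups and from C57BL/6 females in the in vivo group, so nuclear transfer and the strain of the oocyte cannot be told apart in these comparisons. NT embryos were activated with SrCl2, cytochalasin B and Scriptaid (a histone deacetylase inhibitor) and cultured in vitro, which in vivo embryos were not. MEFs were serum-starved fetal fibroblasts, and CCs came from the cumulus-oocyte complexes. Embryos of each type were sampled at 6 stages, from the pronuclear 1-cell embryo through cleavage (2-cell, 4-cell and 8-cell embryos) to the morula and the blastula. Each embryo library is 1 embryo chosen by its morphology, and p-values measure the spread between 3 such libraries.

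The complex lies under the cortex of the oocyte and of the cleavage embryo, away from sites of contact between cells. Its proteins are made in the growing oocyte from maternal genes, are stable, and outlast their transcripts by several cell divisions. Nlrp5 (MATER), Ooep (FLOPED) and Tle6 form the core, and Khdc3 (FILIA) binds to it. Padi6, a member of the peptidylarginine deiminase family, and Nlrp2, an NLR protein like Nlrp5, are needed for the complex or for the cytoplasmic lattices of the oocyte, and the BED-type zinc finger protein Zbed3 has been found in it. Female mice without several of these genes produce embryos that stop at early cleavage.

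The genes lie on 6 chromosomes of the GRCm38 build (GENCODE M21) and are all annotated as protein coding. Nlrp5 (ENSMUSG00000015721, chr7:23385889-23441922, plus strand) and Nlrp2 (ENSMUSG00000035177, chr7:5298547-5351035, minus strand) share chromosome 7. Ooep (ENSMUSG00000032346, chr9:78376109-78378725, minus strand) and Khdc3 (ENSMUSG00000092622, chr9:73101836-73104438, plus strand) share chromosome 9. Tle6 is ENSMUSG00000034758 at chr10:81590904-81601073 (minus strand), Padi6 is ENSMUSG00000040935 at chr4:140727355-140742643 (minus strand), and Zbed3 is ENSMUSG00000041995 at chr13:95323612-95337841 (plus strand). Exons of Khdc3 overlap those of the protein-coding gene Gm20509 on the same strand, and exons of Nlrp2 overlap the pseudogene Gm18757 on the opposite strand. Neither neighbour is in the table. Reads on the exons shared by Khdc3 and Gm20509 cannot be told apart by strand. The strand setting of the counting is not given in the sources used here, so reads of Nlrp2 and Gm18757 cannot be told apart either.

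Promoter sequences are shown for the windows that hold the letters marked below, of 3 members high in 1-cell embryos. That of Khdc3, which was near 0 there, is shown beside them. They are the RefSeq windows (GRCm38.p6) from 250 bases before to 50 bases after the annotated start, 5′ to 3′ on the strand of the gene. All 7 members had a window and there were 11 windows in all. Capitals mark the letters TAATTA or TAATTG, read on either strand, known to be bound by homeobox factors such as the oocyte factor Nobox. They occurred in 3 of the 11 windows (1 each of Nlrp5, Ooep and Padi6) and in 12.4% of all 32851 promoter windows of the same length. No window of Tle6, Nlrp2 or Zbed3, which were also high in 1-cell embryos, held these letters. Nor did the other Nlrp5 window or that of Khdc3. The E-box letters CANNTG, which can share bases with TAATTA or TAATTG, were in 10 of the 11 windows and in 72.3% of all promoter windows. Both matches are descriptions of the letters in these windows.
Nlrp5 (chr7:23385639-23385938, plus strand): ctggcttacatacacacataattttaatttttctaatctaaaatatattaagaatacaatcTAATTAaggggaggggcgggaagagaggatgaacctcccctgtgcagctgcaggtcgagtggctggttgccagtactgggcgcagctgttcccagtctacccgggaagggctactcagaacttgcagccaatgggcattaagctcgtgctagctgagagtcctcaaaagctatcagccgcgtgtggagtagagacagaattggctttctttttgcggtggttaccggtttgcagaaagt
Ooep (chr9:78378539-78378838, minus strand): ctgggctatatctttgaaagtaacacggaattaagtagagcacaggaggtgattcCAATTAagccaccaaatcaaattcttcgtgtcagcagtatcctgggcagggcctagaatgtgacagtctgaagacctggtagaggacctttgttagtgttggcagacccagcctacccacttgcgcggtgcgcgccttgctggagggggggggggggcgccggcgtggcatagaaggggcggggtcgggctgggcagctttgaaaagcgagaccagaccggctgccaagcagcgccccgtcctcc
Padi6 (chr4:140742594-140742893, minus strand): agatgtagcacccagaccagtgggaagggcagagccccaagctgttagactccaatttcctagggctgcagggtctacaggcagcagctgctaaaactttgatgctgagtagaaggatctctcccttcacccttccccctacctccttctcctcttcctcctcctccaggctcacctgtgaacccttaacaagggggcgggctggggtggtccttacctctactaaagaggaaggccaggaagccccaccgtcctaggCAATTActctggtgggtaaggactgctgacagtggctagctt
Khdc3 (chr9:73102148-73102447, plus strand): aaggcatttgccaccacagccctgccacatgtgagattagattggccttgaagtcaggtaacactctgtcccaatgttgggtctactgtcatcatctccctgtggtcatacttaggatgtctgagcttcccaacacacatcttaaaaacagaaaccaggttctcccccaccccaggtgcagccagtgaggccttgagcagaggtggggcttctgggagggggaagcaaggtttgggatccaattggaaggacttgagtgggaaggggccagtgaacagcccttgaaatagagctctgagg

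The embryo libraries had between 5294010 and 26280422 reads on genes (median 14717792) and the donor libraries between 31555889 and 47830167. At these depths 3 reads, the most that a value of 0 allows by counting, were worth 0.0177 to 0.299 RPKM for these 7 genes, and RNA lost before amplification is not covered. Of the 420 values of the members, 63 were 0. A pair of in vivo libraries stood apart from their groups in these genes. In the in vivo 1-cell group, replicate 1 had 9491 genes above 0 and 13.4% of its reads on mitochondrial genes, against 12187 and 12593 genes and 4.71% and 6.26% in replicates 2 and 3. In the in vivo 2-cell group, replicate 3 had a summed RPKM of 1753 over 11 genes of 2-cell genome activation (the Zscan4 cluster, Zfp352 and others), against 100.5 and 348 in replicates 1 and 2. Results that they change are given with and without them. The in vivo 4-cell embryos stood apart as a whole group. Dppa3 (Stella) had 8284 to 12402 RPKM in them and at most 149 in any other embryo library, and Dppa5a 1381 to 1910 and at most 755. They had 5.68% to 8.87% of their reads on mitochondrial genes, against 29.6% to 46.2% in all other 4-cell and 8-cell embryos, and 13576 to 13932 genes above 0, against 9913 to 10304 in in vivo 8-cell embryos. The part of this in the 4-cell results was not tested, and since no in vivo 4-cell library was unlike the others, the step from the 2-cell straight to the 8-cell stage is given beside them, a comparison added after the values were seen. The labels of the donor cells were checked against markers. Inha and Cyp11a1, genes of granulosa and cumulus cells, had 191 to 319 and 157 to 662 RPKM in CCs and at most 5.46 and 0.348 in MEFs. Over all 12 cumulus markers, 8 had a mean of at least 1 RPKM in CCs, Has2 and Cyp19a1 were at 0 there, and the summed level was 480 to 1381 in CCs and 504 to 1200 in MEFs. All 10 MEF markers were above 1 RPKM in MEFs (summed RPKM 8818 to 11486), against 4.80 to 6.41 in CCs. The 10 trophectoderm genes had a summed RPKM of 227 to 1332 in blastulas and at most 182 in any morula. The 8 epiblast genes reached 105 to 327 in blastulas. Their sum did not set blastulas apart, with 99.6 to 343 in morulae, 232 to 353 in NTM 8-cell embryos and 85.8 to 143 in MEFs.

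In all 3 types of embryo, 6 of the 7 genes had their highest group means in 1-cell or 2-cell embryos and were lower in blastulas than in 1-cell embryos, whereas Khdc3 was higher in blastulas. Most of the calls fell on the 2-cell to 4-cell step, where 6 of these genes fell in vivo, 6 in NTC and 4 in NTM. The summed level of the 7 genes was 0.137% to 1.33% of the summed RPKM of all genes in 1-cell and 2-cell libraries, and 0.00252% to 0.0274% in all other libraries. Each stage step was tested by limma on log2(RPKM + 1), so that fold changes of low genes are understated. A gene was called where its adjusted p (Benjamini-Hochberg over all genes tested) was under 0.05 and its log2 fold change was 1 or more in size. In single-embryo libraries, fewer cells of a type and less RNA per cell cannot be told apart, and RPKM gives shares of a library, not amounts per embryo.

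**Figure D1:**
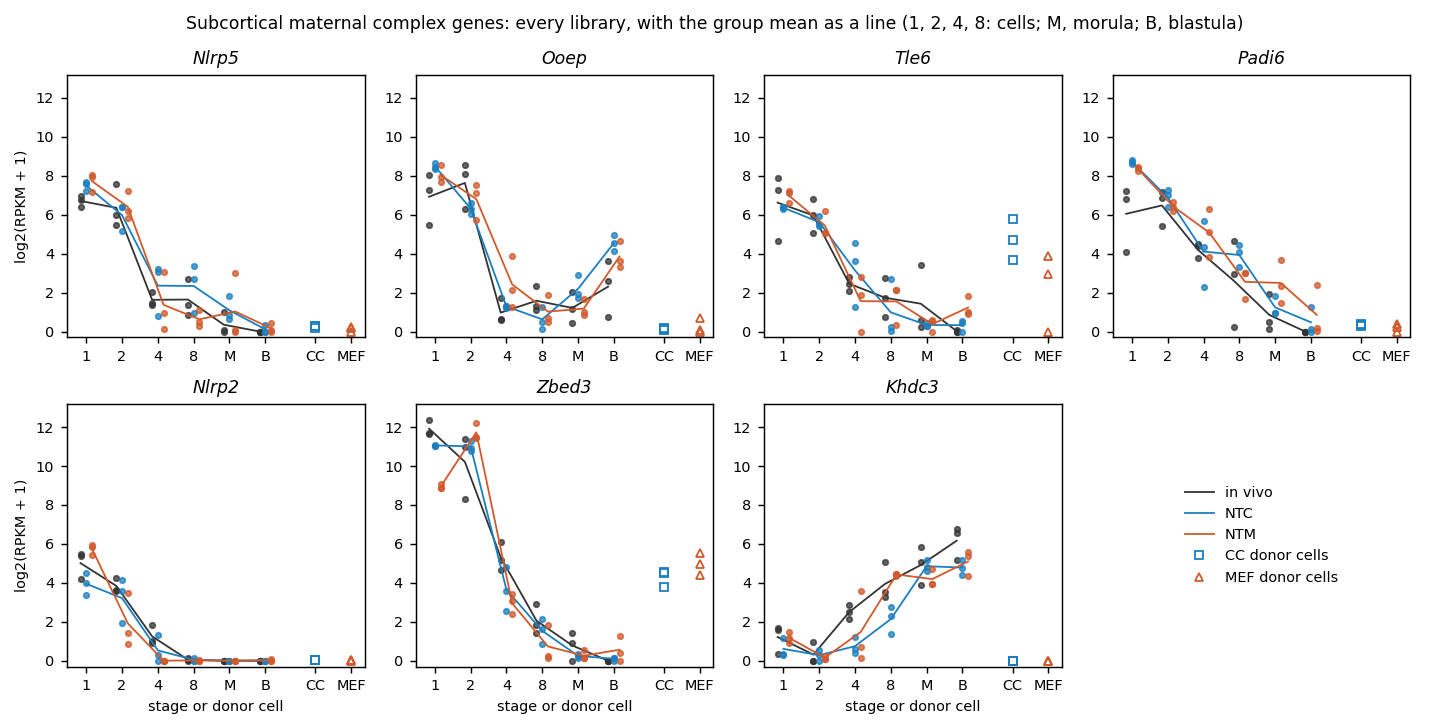
Level of each gene as log2(RPKM + 1) (vertical axis) in every library by stage and in the donor cells (horizontal axis), with embryo types in colour and lines through the group means. By the group means, 6 of the 7 genes start high and drop from the 2-cell to the 4-cell stage and Khdc3 rises instead. Not every such step was called, and the Khdc3 rise was called in vivo only. Tle6 and Zbed3 are also detected in donor cells.

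Among the core genes, Nlrp5, which encodes the founding protein of the complex, had 84.5, 124 and 106 RPKM in the 3 in vivo 1-cell embryos and 192, 61.99 and 43.9 in the 2-cell embryos. In 4-cell embryos it had 3.14, 1.55 and 1.799 RPKM, so the 2-cell and 4-cell groups did not overlap (log2 fold change -4.72, SE 0.59, adjusted p = 0.000515). The same values in NTC were 203, 150.1 and 189 in 1-cell, 34.6, 83.4 and 82.04 in 2-cell and 8.37, 7.32 and 0.716 in 4-cell embryos. NTC embryos had a first fall at the 1-cell to 2-cell step (log2 fold change -1.52, SE 0.35, adjusted p = 0.0212) and a larger one at the next (log2 fold change -3.62, SE 0.71, adjusted p = 0.00494). The first of these calls was lost when any of the NTC 1-cell libraries was left out (adjusted p 0.0681 to 0.0969). NTM embryos had 145, 263 and 244 RPKM in 1-cell, 146, 70.9 and 56.6 in 2-cell and 7.24, 0.0867 and 0.919 in 4-cell embryos, with 1 call, at the 2-cell to 4-cell step (log2 fold change -5.04, SE 0.85, adjusted p = 0.00373). From the 8-cell stage on, no group mean of Nlrp5 exceeded 5.25 RPKM, and all in vivo blastulas were at 0.

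Ooep, a KH-domain protein that joins Nlrp5 and Tle6, had 42.7, 259 and 155 RPKM in in vivo 1-cell, 267, 372 and 77.04 in 2-cell and 0.534, 0.502 and 2.26 in 4-cell embryos. The lowest values of the first 2 groups were those of 1-cell replicate 1 and 2-cell replicate 3. Its 2-cell to 4-cell fall, 217-fold between means (461-fold without 4-cell replicate 3), was the largest of the members on the log2 scale in vivo (log2 fold change -6.66, SE 0.66, adjusted p = 0.000189). In NTC the 1-cell embryos had 408, 324 and 349.7 RPKM and the 2-cell embryos 65.6, 97.8 and 76.1, with no overlap (log2 fold change -2.17, SE 0.22, adjusted p = 0.000711). The NTC 4-cell embryos followed at 1.32, 1.5 and 1.51 RPKM (log2 fold change -5.03, SE 0.40, adjusted p = 0.0001295). The NTM values were 202, 371 and 241 in 1-cell, 52.9, 183 and 139 in 2-cell and 3.36, 13.5 and 1.42 in 4-cell embryos, and the second step was called (log2 fold change -4.38, SE 0.82, adjusted p = 0.00568). Of the 6 falling members, Ooep alone was called higher at a step after the 2-cell stage. In NTC it had 2.28, 6.56 and 2.85 RPKM in morulae and 21.96, 30.2 and 16.5 in blastulas (log2 fold change 2.35, SE 0.44, adjusted p = 0.01699). In NTM it had 0.994, 0.828 and 2.17 RPKM in morulae and 23.7, 11.2 and 9.07 in blastulas (log2 fold change 2.68, SE 0.54, adjusted p = 0.02403). Without NTC morula replicate 1 or 3, or NTC blastula replicate 1 or 2, the first call was lost (adjusted p 0.065 to 0.0805), and without NTM morula replicate 1 or 2, or NTM blastula replicate 1 or 2, the second (0.0726 to 0.134). In vivo blastulas had 4.97, 11.2 and 0.652 RPKM against 0.368, 3.13 and 1.197 in morulae, which overlapped and did not pass the test (log2 fold change 1.09, SE 0.96, adjusted p = 0.542).

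Tle6, a member of the Groucho family of co-repressors, had 24.3, 238 and 156 RPKM in in vivo 1-cell embryos. It had 111, 62.4 and 32.96 in 2-cell and 3.3, 4.48 and 5.99 in 4-cell embryos (log2 fold change -3.51, SE 0.51, adjusted p = 0.00104). NTC 1-cell embryos were closer together, at 81.96, 84.6 and 76.7 RPKM. They were followed by 44.8, 60.5 and 41.1 in 2-cell and 1.43, 11.2 and 22.3 in 4-cell embryos (log2 fold change -2.48, SE 0.77, adjusted p = 0.0338). Leaving out any of the 3 NTC 2-cell libraries, or 4-cell replicate 2, ended that call (adjusted p 0.0539 to 0.126). NTM embryos had 137, 96.5 and 147 RPKM in 1-cell, 73.01, 32.03 and 32.3 in 2-cell and 6.07, 0 and 2.62 in 4-cell embryos, and fell at both steps (log2 fold change -1.54, SE 0.40, adjusted p = 0.048, and log2 fold change -3.88, SE 0.83, adjusted p = 0.0101). The first of these was lost without any of the NTM 1-cell libraries or without 2-cell replicate 2 or 3 (adjusted p 0.0772 to 0.202), and under each alternative setting but the replicate block.

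Padi6, the oocyte member of the peptidylarginine deiminases, had 1-cell levels in NT embryos that lay above all in vivo values, without a call. In vivo 1-cell embryos had 16.1, 113 and 147 RPKM, NTC 1-cell embryos 422, 444 and 389 and NTM 1-cell embryos 302, 348 and 341. By the 2-cell stage the 3 types overlapped, at 140.2, 114 and 42.6 in vivo, 127, 153 and 82.7 in NTC and 83.9, 99.7 and 71.6 in NTM. The 1-cell to 2-cell fall was called in NTC (log2 fold change -1.82, SE 0.24, adjusted p = 0.00259) and in NTM (log2 fold change -1.96, SE 0.26, adjusted p = 0.00383) but not in vivo, where the values overlapped (log2 fold change 0.43, SE 0.79, adjusted p = 0.921) and where, without 1-cell replicate 1, the log2 fold change was -0.54 (adjusted p = 0.778). The difference between these steps did not pass its own test, given with the interactions. Padi6 was still above 3.8 RPKM in every 4-cell embryo. It had 21.2, 12.6 and 19.7 RPKM in in vivo 4-cell embryos (log2 fold change -2.27, SE 0.52, adjusted p = 0.00834), 50.4, 19.4 and 3.85 in NTC (log2 fold change -2.78, SE 0.77, adjusted p = 0.0223, lost without any NTC 2-cell library, adjusted p 0.0605 to 0.0992) and 33.8, 77.1 and 13.4 in NTM, where the step was not called (log2 fold change -1.33, SE 0.68, adjusted p = 0.184). At the 8-cell stage its level was 6.84, 0.171 and 24.2 in vivo, 20.4, 15.8 and 8.86 in NTC and 2.17, 6.89 and 7.06 in NTM, and it was 0 in all in vivo blastulas.

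Nlrp2, an NLR gene of the oocyte, was the lowest of the 6 falling genes in 1-cell and 2-cell embryos of each type. It had 17.5, 42.97 and 40.2 RPKM in in vivo 1-cell, 11.5, 11.2 and 18.3 in 2-cell and 1.01, 0.869 and 2.58 in 4-cell embryos (log2 fold change -2.59, SE 0.42, adjusted p = 0.00173). The in vivo 8-cell embryos had 0.0206, 0.0852 and 0 RPKM, a further fall (log2 fold change -1.20, SE 0.39, adjusted p = 0.0371) that was not called without 4-cell replicate 3 (where it was not tested) or without any 8-cell library (adjusted p 0.0874 to 0.0974). In NTC it had 21.8, 14.7 and 9.35 in 1-cell, 10.8, 16.7 and 2.84 in 2-cell and 0.216, 1.47 and 0 in 4-cell embryos, with a call at the 2-cell to 4-cell step (log2 fold change -2.69, SE 0.68, adjusted p = 0.0156). That call was lost without NTC 2-cell replicate 1 or 2 or NTC 4-cell replicate 1 or 3 (adjusted p 0.051 to 0.0659). In NTM the call was at the 1-cell to 2-cell step, from 55.8, 61.3 and 42.4 in 1-cell to 0.811, 1.71 and 10.01 in 2-cell embryos (log2 fold change -3.82, SE 0.67, adjusted p = 0.0106). It was not called without any of the NTM 1-cell libraries (adjusted p 0.0681 to 0.0782). NTM 4-cell embryos were all at 0, at least 46.2-fold below the 2-cell mean by the limit of 3 reads in the shallowest of them (at least 14.0-fold without 2-cell replicate 3), but this step was not called (adjusted p = 0.102). From the 8-cell stage on, Nlrp2 was at or below 0.105 RPKM in every library.

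Zbed3 was the most abundant member in 1-cell and 2-cell embryos of every type and stood among the most abundant genes of all. It ranked 9 to 10 of all genes in the in vivo 1-cell libraries, 11 in the NTC 1-cell libraries and 72 to 93 in the NTM 1-cell libraries. Its RPKM was 5339, 3345 and 3239 in in vivo 1-cell embryos and 1999, 2696 and 309.9 in 2-cell embryos, where replicate 3 was the low one. In vivo 4-cell embryos had 24.4, 68.5 and 34.5 RPKM (log2 fold change -4.90, SE 0.83, adjusted p = 0.00217) and 8-cell embryos 2.55, 1.68 and 6.55 (log2 fold change -3.26, SE 0.54, adjusted p = 0.00226). In NTC the levels of 1-cell embryos (2086, 2123 and 2195) and 2-cell embryos (1769, 1947 and 2531) overlapped, and the level then dropped to 11.01, 4.903 and 27.03 (log2 fold change -7.36, SE 0.53, adjusted p = 0.000101). NTM embryos began with 464, 539.8 and 459 RPKM, below every other 1-cell embryo, and 2-cell embryos had 4788, 2822 and 2901. This was the only increase of a member called at the 1-cell to 2-cell step, 7.18-fold between means (log2 fold change 2.80, SE 0.25, adjusted p = 0.000772), and it held when any of the 6 libraries was left out. NTM 4-cell embryos then had 4.19, 9.73 and 7.27 RPKM, 496-fold below the 2-cell mean (log2 fold change -8.78, SE 0.49, adjusted p = 8.56e-05).

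Khdc3, whose protein binds the core and is also known from embryonic stem cells, was low in 1-cell and 2-cell embryos and highest in blastulas or morulae. It had 0.2802, 2.24 and 2.02 RPKM in in vivo 1-cell and 0.917, 0 and 0 in 2-cell embryos. In vivo 4-cell embryos had 4.64, 6.22 and 3.44, above every 2-cell embryo (log2 fold change 2.19, SE 0.43, adjusted p = 0.004102). The in vivo level then reached 10.6, 32.3 and 8.49 at the 8-cell stage, 13.6, 55.6 and 32.3 in morulae and 35.6, 106 and 92.7 in blastulas, but none of these later steps was called. The 4-cell to 8-cell step came closest, with no overlap, like 55.6% of all genes (log2 fold change 1.45, SE 0.53, adjusted p = 0.0586), and was called with median-ratio scaling (adjusted p = 0.00867). In NTC it had 0.241, 0.276 and 1.24 RPKM in 1-cell, 0.206, 0.4896 and 0 in 2-cell and 0.307, 1.36 and 0.523 in 4-cell embryos. NTC 8-cell embryos had 5.803, 3.84 and 1.57, morulae 23.3, 26.96 and 34.5 and blastulas 35.4, 25.9 and 20.4, and no step of Khdc3 in NTC was called, although 8-cell embryos and morulae did not overlap (log2 fold change 2.72, SE 0.51, adjusted p = 0.121). The NTM values were 11.1, 0.0998 and 0.609 in 4-cell, 20.9, 19.5 and 21.3 in 8-cell embryos, 25.3, 14.1 and 14.4 in morulae and 46.9, 39.95 and 19.6 in blastulas, with replicate 1 the high one of the 4-cell group. The steps of Khdc3 in NTM were not called (4-cell to 8-cell, log2 fold change 2.96, SE 0.88, adjusted p = 0.231). Without NTM 4-cell replicate 1 this step was called (adjusted p = 0.0418).

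**Figure D2:**
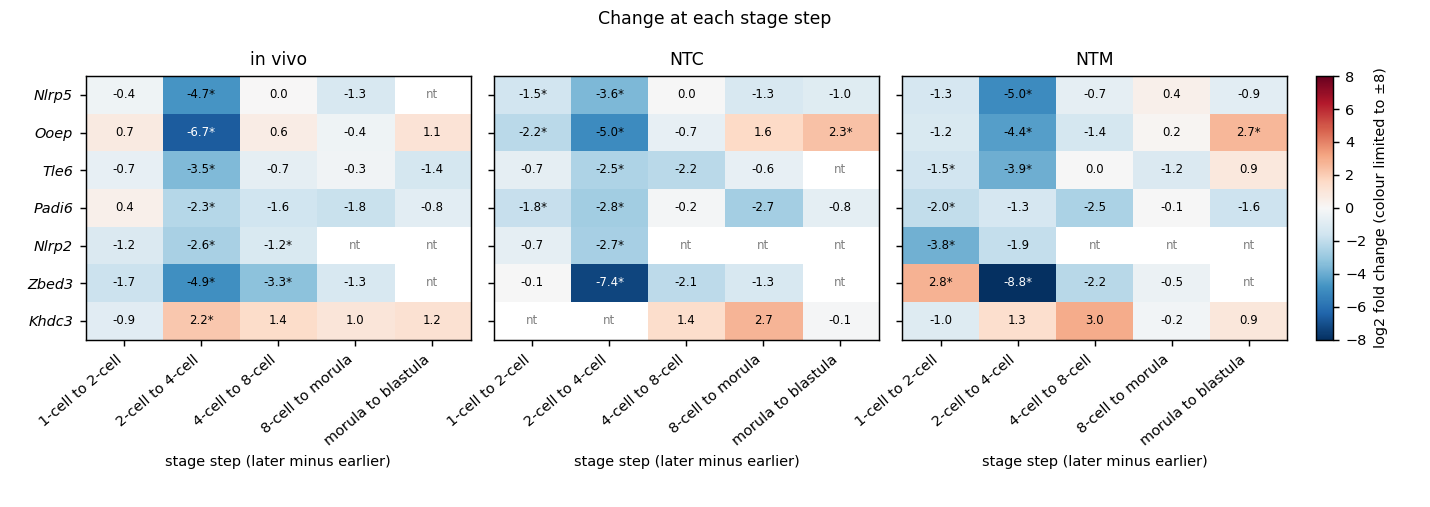
Log2 fold change (later minus earlier stage, colour and number) of each gene (rows) at each stage step (columns) in the 3 embryo types. An asterisk marks a call, and nt a gene not tested because its mean was under 0.5 RPKM. The 2-cell to 4-cell column holds 17 of the 28 calls, with Khdc3 higher in vivo, and Zbed3 is called higher at the first step in NTM. Over all genes the 2-cell to 4-cell step also had the most calls in each type.

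Over the 5 steps, 9 calls were made for the members in vivo (1 higher, 8 lower), 10 in NTC (1 higher, 9 lower) and 9 in NTM (2 higher, 7 lower). The share of all genes called gives the background for these counts. At the in vivo 1-cell to 2-cell step no member was called, and 0% of all genes were, although 1 member (Zbed3, log2 fold change -1.70, SE 0.68, adjusted p = 0.8197) had no overlap and an unadjusted p under 0.05, like 4.73% of all genes. Without 2-cell replicate 3 its log2 fold change was -0.74. At the in vivo 2-cell to 4-cell step 6 members fell and 1 rose, where 20.8% of all genes fell and 31.4% rose. The median log2 fold change of the 7 members was -3.51 against 0.36 over all genes, and each of the 7 calls held when any library was left out. With the 4-cell group left out, in 8-cell against 2-cell embryos, the same 6 members were lower in vivo (log2 fold change -3.79 for Nlrp2 to -8.16 for Zbed3, adjusted p 0.000308 to 0.0224), beside 27.8% of all genes lower, and Khdc3 was higher (3.63, adjusted p = 0.00268), beside 13.8% higher. At the 4-cell to 8-cell step 2 members fell (Nlrp2 and Zbed3), beside 39.3% of all genes. In this step the median over all genes was itself -1.05, and the share of calls that were higher moved from 10.1% to 42.2% with median-ratio scaling, under which Zbed3 was still called and Nlrp2 was not (adjusted p = 0.098). Mitochondrial reads were 5.68% to 8.87% of the reads on genes in in vivo 4-cell libraries and 32.1% to 45.0% in 8-cell libraries, and with nuclear reads only Nlrp2 had a log2 fold change of -1.23 and was not called (adjusted p = 0.0502). Later in vivo steps had no member called, with 0.0116% of all genes called at the 8-cell to morula step and 0.801% at the morula to blastula step.

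In NTC, 3 members fell at the 1-cell to 2-cell step (Nlrp5, Ooep and Padi6) beside 8.95% of all genes, and they were also called with median-ratio scaling, which moved the share of higher calls from 33.6% to 49.6%. With 1 fit over all 20 groups Nlrp5 (adjusted p = 0.121) and Padi6 (0.111) were not called, and with no filter on low values Nlrp5 was not (0.0687). At the 2-cell to 4-cell step 6 fell beside 20.1%, and Khdc3 was not tested. Between 2-cell and 8-cell embryos all 7 were called, beside 35.1% of all genes in either direction, with the same 6 lower and Khdc3 higher (log2 fold change 1.85, adjusted p = 0.0266). The 4-cell to 8-cell step (0.0564% of all genes called) and the 8-cell to morula step (0%) had no member called, and 1 member (Ooep) rose at the last step beside 4.54% of all genes (63.4% of calls higher, and 49.3% with median-ratio scaling, under which Ooep was still called). In NTM, 3 members fell at the 1-cell to 2-cell step (Nlrp2, Padi6 and Tle6) beside 6.68% of all genes, and 1 rose (Zbed3) beside 2.72%. Median-ratio scaling moved the share of higher calls at this step from 28.9% to 48.6%, and Tle6 was then not called (adjusted p = 0.131), and with 1 fit over all 20 groups Padi6 was not (0.0611). At the 2-cell to 4-cell step 4 fell beside 14.3%. Between 2-cell and 8-cell embryos 5 were lower, beside 21.9% of all genes, with Padi6 (-3.86, adjusted p = 0.000724) among them and Nlrp2 not called (adjusted p = 0.064), and Khdc3 was higher (4.27, adjusted p = 0.000194), beside 17.9%. No NTM member was called at the 4-cell to 8-cell step (0.363% of all genes) or the 8-cell to morula step (0%), and 1 (Ooep) rose at the last step beside 3.73%. With median-ratio scaling the share of higher calls at the NTM morula to blastula step went from 88.2% to 48.3% of all calls, and Ooep was no longer called (adjusted p = 0.0505).

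From the 1-cell embryo to the blastula, all 7 genes changed in each type, and 6 fell while Khdc3 rose. The background was 25.4% of all genes lower and 9.34% higher in vivo, 38.7% and 24.5% in NTC, and 31.1% and 26.1% in NTM. The falling genes were not equal in where they ended. Zbed3 fell from a mean of 3974 ± 1183 RPKM (SD, n = 3) to 0 in all in vivo blastulas, which is at least 21471-fold by the limit of 3 reads in the shallowest blastula library (log2 fold change -11.92, SE 0.45, adjusted p = 0.000164). By the same limit Nlrp5 was at least 1058-fold, Padi6 at least 665-fold and Nlrp2 at least 325-fold lower in in vivo blastulas. Ooep kept the highest level of the falling genes in blastulas, 27.2-fold below its 1-cell mean in vivo (log2 fold change -4.62, SE 0.99, adjusted p = 0.0123; 17.7-fold without 1-cell replicate 2 and 54.2-fold without blastula replicate 2), 15.7-fold in NTC (log2 fold change -3.95, SE 0.25, adjusted p = 1.33e-05) and 18.5-fold in NTM (log2 fold change -4.19, SE 0.43, adjusted p = 0.000135). The in vivo call of Ooep was lost without 1-cell replicate 2 (adjusted p = 0.0599) or 3 (0.062). Khdc3 was 51.7-fold higher in vivo (log2 fold change 4.95, SE 0.68, adjusted p = 0.00213), 46.7-fold in NTC (log2 fold change 4.18, SE 0.33, adjusted p = 3.59e-05; 106-fold without 1-cell replicate 3) and 27.5-fold in NTM (log2 fold change 3.92, SE 0.41, adjusted p = 0.000157).

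The NT groups were compared with in vivo embryos and with each other at each stage, to ask whether the maternal transcripts of an NT embryo differ from those of a fertilized embryo. At the 1-cell stage Zbed3 was lower in NTM than in vivo by 8.15-fold between means (log2 fold change -2.99, SE 0.26, adjusted p = 0.00184), beside 0.912% of all genes lower, and it held without any of the 6 libraries. In NTC the 1-cell level of Zbed3 was also below every in vivo value, but this was not called (log2 fold change -0.86, SE 0.23, adjusted p = 0.0965). No member was called between NTC and in vivo at the 1-cell stage, where 1.16% of all genes were, although 4 members did not overlap, nor did 33.5% of all genes. Padi6 was 4.54-fold higher in NTC (log2 fold change 2.66, SE 0.74, adjusted p = 0.103) and 3.59-fold higher in NTM (log2 fold change 2.33, SE 0.71, adjusted p = 0.185), with no overlap in either and no call. Between NTM and in vivo, 23.1% of all genes did not overlap. Nlrp5 did not overlap either, at 1.73-fold the in vivo mean in NTC (log2 fold change 0.79, SE 0.27, adjusted p = 0.149) and 2.07-fold in NTM (log2 fold change 1.02, SE 0.33, adjusted p = 0.219). These comparisons share the in vivo libraries. In vivo 1-cell replicate 1 had the lowest Padi6, Ooep, Tle6, Nlrp5 and Nlrp2 and the highest Zbed3 of its group. Without it, Padi6 was called higher in NTC (log2 fold change 1.69, adjusted p = 0.00104) and in NTM (1.35, adjusted p = 0.0094), and Tle6 (-1.24, adjusted p = 0.00715) and Nlrp2 (-1.46, adjusted p = 0.0211) were called lower in NTC. Over all genes, 1524 were then called between NTC and in vivo, against 126 with all libraries. For NTM the same omission gave 853 calls over all genes, against 132 with all libraries. The NTC count was 6 without in vivo replicate 2, 115 without replicate 3 and 1 when any single NTC library was left out.

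After the 1-cell stage, 1 member was called against in vivo embryos in each NT group, both at the 4-cell stage. At the 2-cell stage none was called in NTC (0.152% of all genes) or NTM (0.141%), and without in vivo 2-cell replicate 3 Ooep was called lower in NTC (log2 fold change -1.99, adjusted p = 0.032). Over all genes, 112 were then called in NTC, against 18 with all libraries. At the 4-cell stage Khdc3 was lower in NTC, 0.307, 1.36 and 0.523 against 4.64, 6.22 and 3.44 RPKM (log2 fold change -1.76, SE 0.47, adjusted p = 0.0238), beside 20.4% of all genes lower. In NTM Zbed3 was lower, 4.19, 9.73 and 7.27 against 24.4, 68.5 and 34.5 RPKM (log2 fold change -2.36, SE 0.55, adjusted p = 0.0201), beside 17.8% of all genes lower. Both calls depended on the in vivo 4-cell libraries, since Khdc3 was not called without any of them or without NTC 4-cell replicate 3 (adjusted p 0.0522 to 0.094), nor Zbed3 without replicate 2 or 3 (0.0909 and 0.0724). They also moved with the scaling. Mitochondrial reads were 5.68% to 8.87% of the reads on genes in in vivo 4-cell libraries, 31.6% to 34.7% in NTC and 29.6% to 40.4% in NTM, and with nuclear reads only the log2 fold change was -1.59 for Khdc3 (adjusted p = 0.06) and -1.91 for Zbed3 (0.0516). With median-ratio scaling it was -1.45 (adjusted p = 0.0517) and -1.63 (0.0882), and the share of calls that were higher at this stage moved from 26.6% to 41.5% in NTC and from 15.8% to 36.9% in NTM. Nlrp2 was 0 in all NTM 4-cell embryos, at least 16.4-fold below the in vivo mean (10.4-fold without in vivo replicate 3), without a call (adjusted p = 0.0815).

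At later stages no member was called against in vivo embryos. The background was 1.46% of all genes in NTC 8-cell embryos, 0.0321% in NTC morulae and 9.46% in NTC blastulas, and 2.02%, 0.168% and 0.746% in the same stages of NTM. Khdc3 did not overlap between NTC and in vivo 8-cell embryos, 5.803, 3.84 and 1.57 against 10.6, 32.3 and 8.49 RPKM (log2 fold change -1.81, SE 0.68, adjusted p = 0.178), nor in blastulas, 35.4, 25.9 and 20.4 against 35.6, 106 and 92.7 (log2 fold change -1.38, SE 0.62, adjusted p = 0.195). Ooep was above every in vivo value in all NTC blastulas (log2 fold change 2.23, SE 0.86, adjusted p = 0.135). None of these passed the test. In 1 fit over all 20 groups, Ooep in NTC blastulas (adjusted p = 0.00831) and Khdc3 in NTC 8-cell embryos (0.0348) were called. Between NTC and in vivo, 29.9% of all genes did not overlap in 8-cell embryos and 35.1% in blastulas. In NTM blastulas Tle6 and Padi6 lay above every in vivo value without a call, where 32.6% of all genes did not overlap. With a pseudocount of 0.1 Tle6 was called there (log2 fold change 3.63, adjusted p = 0.0379).

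**Figure D3:**
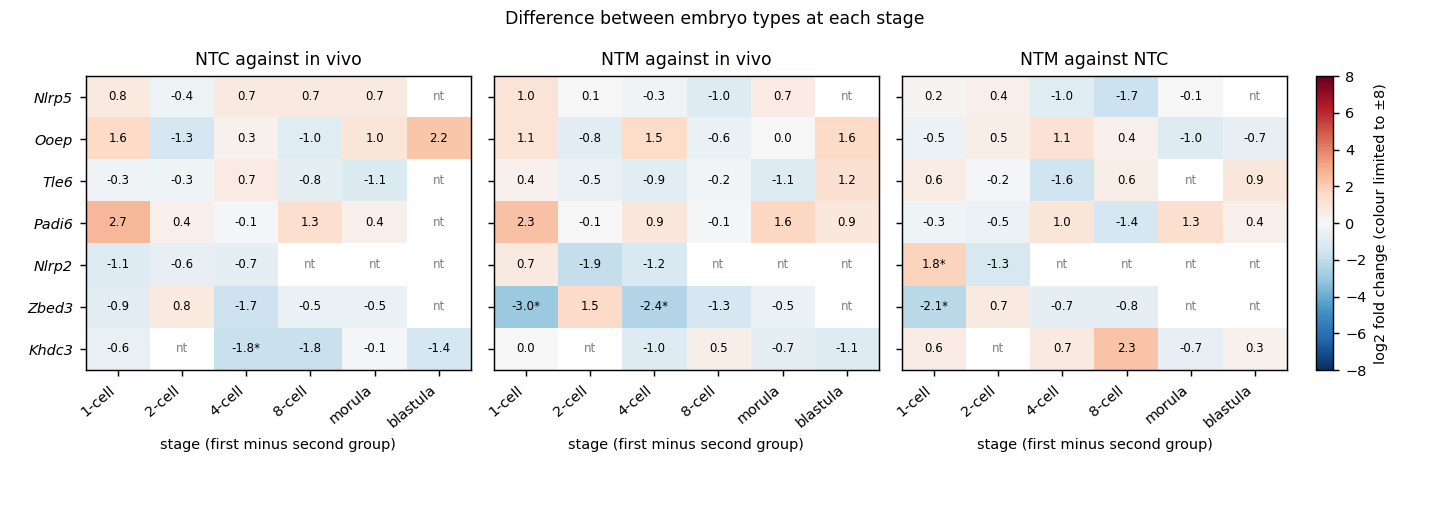
Log2 fold change between embryo types (colour and number, first minus second group) of each gene (rows) at each stage (columns). An asterisk marks a call and nt a gene not tested. Of the 5 calls, 3 are of Zbed3, with -3.0 and -2.4 for NTM against in vivo and -2.1 for NTM against NTC.

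The 2 NT groups differed from each other at the 1-cell stage in 2 members. Zbed3 was 4.38-fold lower in NTM than in NTC 1-cell embryos (log2 fold change -2.13, SE 0.12, adjusted p = 3.88e-05), beside 14.2% of all genes lower. Nlrp2 was 3.48-fold higher, with 55.8, 61.3 and 42.4 RPKM in NTM against 21.8, 14.7 and 9.35 in NTC (log2 fold change 1.79, SE 0.31, adjusted p = 0.00479), beside 5.64% of all genes higher. Of all calls 28.4% were higher, and 39.1% with median-ratio scaling. Neither call of a member changed when any library was left out or under any of the 6 alternative settings. Tle6 and Padi6 did not overlap between the groups either, but were not called (log2 fold change 0.62, SE 0.20, adjusted p = 0.0517, and log2 fold change -0.34, SE 0.14, adjusted p = 0.104). Between these groups 42.1% of all genes did not overlap. Cumulus markers had a summed RPKM of 6.72 to 8.84 in NTC 1-cell embryos, with Amh, Amhr2, Inha and Foxl2 at 0, against 3.45 to 12.9 in vivo and 6.17 to 12.4 in NTM. These 4 genes were also at 0 in the other types. Ptx3, Tnfaip6, Cyp11a1 and Star were at 0 in vivo but not in NTC, and Cyp11a1 was at 0 in NTM. The 10 MEF markers had 0.396 to 2.61 in NTM 1-cell embryos, with 5 at 0 (Col1a1, Col1a2, Col3a1, Twist2 and Lum). In NTC they had 0.588 to 2.53, with 5 at 0 (Col1a1, Col1a2, Twist2, Dcn and Lum). At the other stages no member was called between NTM and NTC, with 0% of all genes called at the 2-cell, 0% at the 4-cell, 0.0507% at the 8-cell, 0% at the morula and 0% at the blastula stage. At the 8-cell stage Khdc3 was above every NTC value in all NTM embryos, 20.9, 19.5 and 21.3 against 5.803, 3.84 and 1.57 RPKM, without a call (log2 fold change 2.29, SE 0.51, adjusted p = 0.126). At this stage 21.4% of all genes did not overlap between NTM and NTC.

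**Figure D4:**
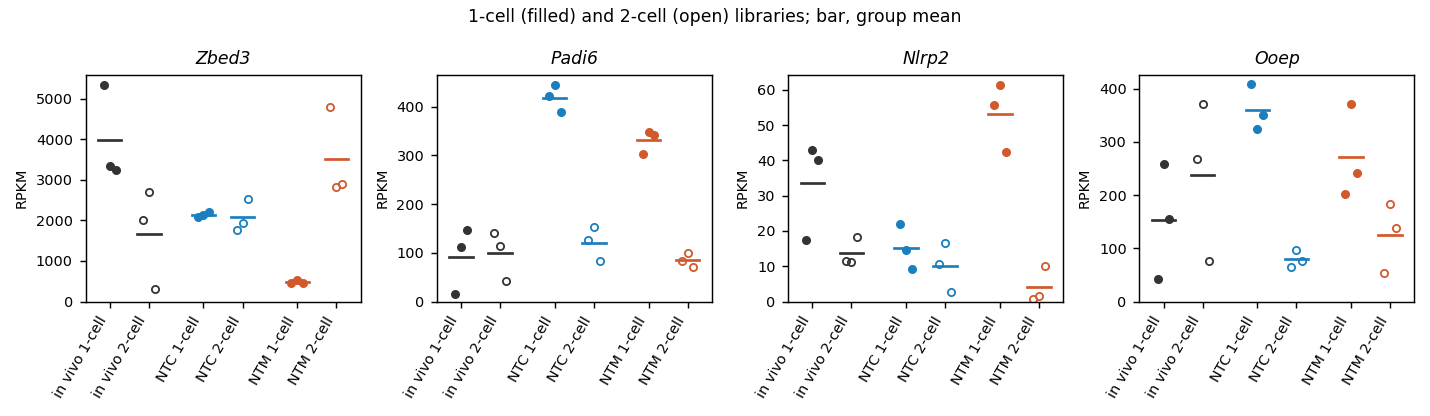
RPKM (linear vertical axes, each from 0) of Zbed3, Padi6, Nlrp2 and Ooep in every 1-cell and 2-cell library of the 3 embryo types, with bars at the group means. Among 1-cell embryos Zbed3 is lowest in NTM (459 to 539.8 RPKM), and Padi6 is above 300 RPKM in all 6 NT 1-cell embryos.

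The size of each step in NT embryos was set against the same step in vivo by an interaction term in limma. For Zbed3 the NTM step from 1-cell to 2-cell exceeded the in vivo step by 4.50 on the log2 scale (SE 0.82, adjusted p = 0.0472), beside 0.0709% of all genes higher (34.8% of calls, and 69.7% with median-ratio scaling, under which Zbed3 was still called). The 2-cell to 4-cell fall was 3.88 larger in NTM (SE 1.00, adjusted p = 0.0285), beside 8.05% of all genes lower. Each was lost without replicate 1, 2 or 3 of every group (adjusted p 0.0841 to 0.519 and 0.0811 to 0.164), with the same sign. Without in vivo 1-cell replicate 1 alone the first was 4.27 (adjusted p = 0.0876). Without in vivo 2-cell replicate 3 alone, which was low in Zbed3 at 310 RPKM, they were 3.54 (adjusted p = 0.00322) and -2.91 (adjusted p = 0.0214). Over all genes, 96 and 1160 were then called. Between 2-cell and 8-cell embryos, without the 4-cell groups, the Zbed3 fall was larger in NTM by 2.84 and did not pass the test (adjusted p = 0.284), beside 0.577% of all genes called. No other member was called in NTM. The difference between steps of Padi6 at the 1-cell to 2-cell step was -2.39 in NTM (adjusted p = 0.302) and -2.25 in NTC (adjusted p = 0.397), and that of Nlrp2 in NTM was -2.66 (adjusted p = 0.228). Without in vivo 1-cell replicate 1 they were -1.41 (adjusted p = 0.363), -1.28 (0.473) and -2.26 (0.306). The later steps of NTM had 18.7% (4-cell to 8-cell), 0.0335% (8-cell to morula) and 0.647% (morula to blastula) of all genes called. In NTC no member was called at any step, where 0.0256%, 14.3%, 19.5%, 0% and 0.236% of all genes were called at the 5 steps in order. Without in vivo 2-cell replicate 3 Ooep was called in NTC at the 1-cell to 2-cell step (-3.56, adjusted p = 0.0478) and at the 2-cell to 4-cell step (2.31, adjusted p = 0.0226). Over all genes, 122 and 2023 were then called at these steps, against 3 and 1895 with all libraries.

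In the donor cells 5 of the 7 genes were near or at 0, whereas Tle6 and Zbed3 were not. Khdc3 was 0 in all 6 libraries, and Nlrp5, Ooep, Padi6 and Nlrp2 were between 0 and 0.64 RPKM. Tle6 had 25.3, 53.9 and 11.9 RPKM in CCs and 13.7, 6.76 and 0 in MEFs, and Zbed3 21.9, 22.1 and 12.7 and 44.96, 20.2 and 30.7. MEF replicate 3 was at 0 for every member but Zbed3. Compared with CCs, 6 members were higher in NTC 1-cell embryos, beside 29.3% of all genes, and Khdc3 was not tested. Compared with MEFs, all 7 were higher in NTM 1-cell embryos, beside 25.2% of all genes. The largest difference on the log2 scale was that of Padi6 in both (NTC against CC, log2 fold change 8.38, SE 0.21, adjusted p = 1.24e-05, and NTM against MEF, log2 fold change 8.17, SE 0.26, adjusted p = 3.84e-06). The smallest were those of Tle6 in NTC (log2 fold change 1.63, SE 0.53, adjusted p = 0.0468) and of Khdc3 in NTM (log2 fold change 1.18, SE 0.38, adjusted p = 0.0348). The Tle6 call was lost without any NTC 1-cell library or without CC replicate 1 or 3 (adjusted p 0.0546 to 0.139). The Khdc3 call was lost without MEF replicate 2 or NTM 1-cell replicate 1 (0.052 and 0.0578) and was not tested without NTM 1-cell replicate 3. Zbed3 was 15.3-fold higher in NTM 1-cell embryos than in MEFs and 113-fold higher in NTC 1-cell embryos than in CCs.

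The make-up of the summed level of the 7 genes changed with the stage. In 1-cell embryos Zbed3 made up 81.1% to 96.6% of it in vivo, 64.7% to 68.4% in NTC and 31.1% to 35.5% in NTM. Without Zbed3 the summed RPKM of the other 6 members was 185 to 779 in in vivo 1-cell embryos, with replicate 1 the lowest, 1015 to 1137 in NTC and 843 to 1140.0 in NTM. In 2-cell embryos Zbed3 made up 59.1% to 81.3% in vivo, 82.5% to 89.9% in NTC and 87.9% to 93.1% in NTM. By rank of the group means, Zbed3 came first at the 1-cell stage in each type. In vivo, the next 4 genes, Ooep, Tle6, Nlrp5 and Padi6, overlapped with their neighbours in that order. In NTC 1-cell embryos Padi6 (418 ± 27.96, SD) and Ooep (361 ± 43.2) overlapped, whereas Nlrp5 (181 ± 27.6), Tle6 (81.1 ± 4.03) and Nlrp2 (15.3 ± 6.27) followed without overlap. In NTM 1-cell embryos Padi6, Ooep, Nlrp5 and Tle6 each overlapped with the next. At the 4-cell stage Padi6 came first in both NT groups and Zbed3 in vivo, and in morulae and blastulas Khdc3 came first in all types, overlapping with Ooep in NTC and NTM blastulas.

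**Figure D5:**
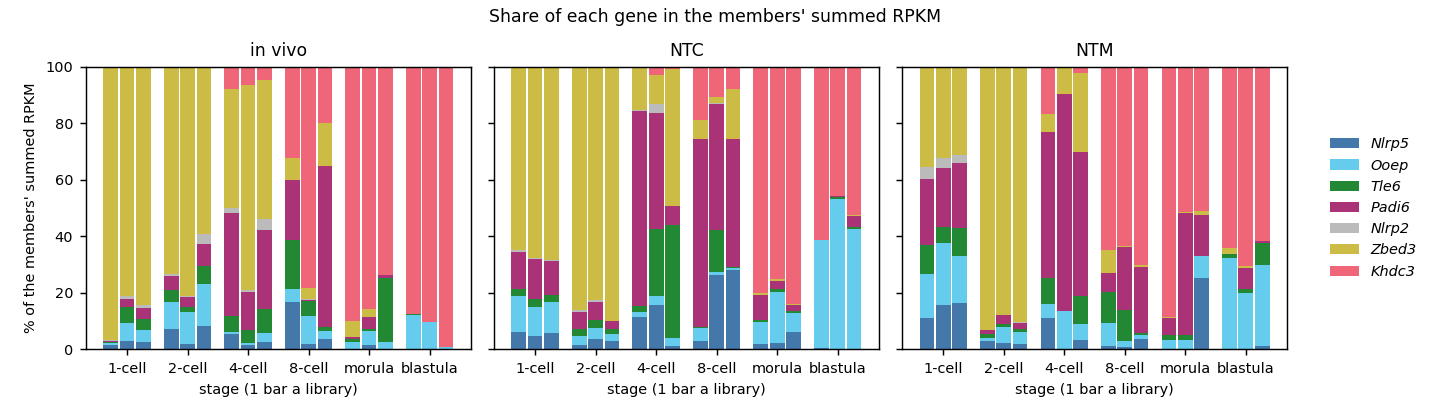
Percentage of the summed RPKM of the 7 genes taken by each of them (stacked bars from 0 to 100), with 1 bar for each library by stage and embryo type. Zbed3 takes 81.1% to 96.6% in in vivo 1-cell embryos and 31.1% to 35.5% in NTM 1-cell embryos, and Khdc3 takes the largest share in in vivo morulae and blastulas.

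Across the 20 group means of log2(RPKM + 1), each falling member had its highest correlation with another falling member. These correlations are descriptions, since the points share the stage course and the libraries. Nlrp5 was most like Padi6 (Pearson's r = 0.93) and Nlrp2 (0.93), Tle6 was most like Zbed3 (0.94), and Ooep most like Nlrp5 (0.87). Khdc3 had negative correlations with all others, from -0.36 with Ooep to -0.79 with Zbed3. Of 13528 genes ranked by their likeness to the mean of the 7 members, the nearest were C87499, 4933427D06Rik, Gm13084, Fbxw27 and Nlrp4a (r 0.99 each). Their mean in 1-cell embryos was 226, 920.2, 269, 260 and 195 RPKM, and in blastulas 0 to 0.0865.

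Other genes of the complex, of the lattices and of the oocyte were followed in the same fits. Of 7 genes associated with the complex or the lattices, 5 fell and 1 rose at the in vivo 2-cell to 4-cell step, where the median log2 fold change was -3.82 (0.36 over all genes). Nlrp4f, an NLR gene, went from a mean of 435 to 3.61 RPKM (log2 fold change -6.58, SE 0.38, adjusted p = 3.20e-05), Nlrp14, a germ-cell NLR gene, from 350.2 to 5.99, and Uhrf1, a partner of the maintenance methyltransferase, from 65.9 to 2.92. Dppa3, 1 of the genes in which the in vivo 4-cell group stood apart, rose from 43.9 to 9947 RPKM (log2 fold change 7.86, SE 0.38, adjusted p = 2.14e-05), but was not called in 8-cell against 2-cell embryos (1.31, adjusted p = 0.0571), where 5 of the 7 fell and none rose. At the same step 4 of the 7 fell and none rose in NTC (median -2.94) and in NTM (median -2.71), with -0.20 over all genes in both. Dppa3 was lower in NTC than in in vivo 4-cell embryos (9947 to 31.4 RPKM, in vivo first, log2 fold change -8.35, SE 0.34, adjusted p = 3.79e-06). At the 1-cell stage Nlrp4f was higher in NTM than in vivo (log2 fold change 1.53, SE 0.28, adjusted p = 0.0399, and 1.30, adjusted p = 0.00761 without in vivo replicate 1). Cfl1, the actin-severing cofilin, was lower in NTM 1-cell embryos than in vivo (337 to 4.34 RPKM, in vivo first, log2 fold change -5.33, SE 0.89, adjusted p = 0.0273, and -6.54 without in vivo replicate 1) and than in NTC (log2 fold change -6.96, SE 0.23, adjusted p = 4.52e-06), and it rose at the NTM 1-cell to 2-cell step, like Zbed3 (log2 fold change 6.83, SE 0.34, adjusted p = 0.000115).

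Of 10 oocyte NLR genes, which include Nlrp4f and Nlrp14, 9 fell at the 2-cell to 4-cell step in vivo (median log2 fold change -5.58), 10 in NTC (-5.85) and 9 in NTM (-5.37), and none rose. At the 1-cell to 2-cell step 5 fell in NTC, beside 8.95% of all genes, and 5 in NTM, beside 6.68%, and in vivo, where 0% of all genes were called, none was. In 8-cell against 2-cell embryos 10 were lower in vivo. Nlrp9c fell at the in vivo 2-cell to 4-cell step from a mean of 381 to 8.62 RPKM (log2 fold change -5.37, SE 0.50, adjusted p = 0.000152). Of 16 other maternal genes of the oocyte, 11 fell at that step in vivo (median -4.49), 12 in NTC (-3.18) and 10 in NTM (-3.27), with none higher, and in 8-cell against 2-cell embryos 11 in vivo. Btg4, an adaptor of maternal mRNA decay, went from 5875 to 28.4 RPKM in vivo (log2 fold change -7.67, SE 0.34, adjusted p = 1.77e-05), and Bmp15, a growth factor of the oocyte, from 1176 to 4.19. Btg4 was also the only gene of this list that rose at the NTM 1-cell to 2-cell step (log2 fold change 1.07, SE 0.27, adjusted p = 0.0392). H1foo, the oocyte linker histone, was lower in 1-cell embryos of NTC (log2 fold change -3.37, SE 0.36, adjusted p = 0.0117) and NTM (log2 fold change -2.80, SE 0.44, adjusted p = 0.0221) than in vivo, and without in vivo replicate 1 the differences were -3.68 and -3.11.

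The relatives of the members did not share 1 course. Of 19 paralogs in the table, 11 were tested at the in vivo 2-cell to 4-cell step, where 4 fell and 1 rose, beside 20.8% of all genes lower and 31.4% higher. Khdc1a, Khdc1b and Khdc1c, KH-domain relatives of Khdc3 and Ooep, fell, Khdc1b from a mean of 2198 to 85.3 RPKM (log2 fold change -4.68, SE 0.28, adjusted p = 3.45e-05). Dppa5a, a relative in the same family known from embryonic stem cells, rose from 2.13 to 1685 RPKM (log2 fold change 9.10, SE 0.35, adjusted p = 1.77e-05) in the 4-cell group that stood apart in it, and was higher in 8-cell than in 2-cell embryos too (5.57, adjusted p = 0.000146). In that comparison Khdc1b was lower and Khdc1a and Khdc1c were not called (adjusted p = 0.406 and 0.569). Dppa5a rose at the 2-cell to 4-cell step in NTC (log2 fold change 2.31, SE 0.55, adjusted p = 0.0115) and in NTM (log2 fold change 4.29, SE 0.64, adjusted p = 0.00237) as well, and was lower in NTC than in in vivo 4-cell embryos (log2 fold change -6.77, SE 0.28, adjusted p = 3.79e-06). Reads of near-identical genes in the Khdc1 and Nlrp families may have been divided between them by the counting.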

How the data were processed

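RNA-seq libraries were made from single embryos and donor cells by reverse transcription with poly(A) tailing and PCR, without molecular identifiers. The authors deposited 1 table of RPKM values for 27238 genes and 60 libraries (20 groups of 3), made by filtering the reads, aligning them (TopHat and Bowtie2 in the methods of the study, Bowtie 0.12.2 and the mm8 build in the submitters' processing notes), counting them per gene with HTSeq and scaling them. The table holds no counts and no coordinates. Groups were taken from the labels, and the reads on genes were taken from the steps of low RPKM values. Over all genes, 74.5% to 81.0% of the values under 100 reads in a library lay within 0.02 of a whole number of reads. All 140 such member values did. This was no check for members whose annotated exon length missed it, since the shortest length that met it was used instead. Counting limits use 3 reads and cover counting error only. Gene positions are those of GENCODE M21 (GRCm38), and the exon length that the table implies equals the annotated one in 4 of 7 members.

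RPKM values were tested as log2(RPKM + 1) by limma 3.58.1 (lmFit and eBayes with an intensity trend, two-sided) in R 4.3.3, in 38 pairs of groups and 10 interactions. Each fit used the compared groups and the genes with a mean of at least 0.5 RPKM in them, and p-values were adjusted by Benjamini-Hochberg over those genes. Calls needed a log2 fold change of 1 or more in size and an adjusted p under 0.05. The fits were tested on simulated data. Values were summarised in Python 3.11.15. The alternatives were a pseudocount of 0.1, no filter, median-ratio scaling, scaling to nuclear reads, 1 fit over all 20 groups, the replicate number as a block, leaving out each library and, added after the values were seen, the step from 2-cell to 8-cell embryos without the 4-cell groups and interactions without in vivo 1-cell replicate 1 or 2-cell replicate 3.

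The members and the lists (genes associated with the complex or the lattices, oocyte NLR genes, paralogs, other oocyte genes, genes of 2-cell genome activation, and markers of trophectoderm, epiblast, cumulus cells and MEFs) were chosen with earlier results of these data known. From each list up to 3 called genes per comparison with the highest mean RPKM could be named, and outside the lists the 5 genes most like the members' mean in pattern.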

Additional observations from a re-analysis of the deposited data

Results flagged for a closer look

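The step of Zbed3 from 1-cell to 2-cell embryos differed between NTM and in vivo embryos by 4.50 on the log2 scale (interaction in limma, SE 0.82, adjusted p = 0.0472). It rose from a mean of 488 to 3504 RPKM in NTM, with no overlap, and went from 3974 to 1668 RPKM in vivo. The following step, from 2-cell to 4-cell embryos, differed by -3.88 (SE 1.00, adjusted p = 0.0285). Both differences kept their sign without replicate 1, 2 or 3 of every group, and neither passed the test then. Without in vivo 1-cell replicate 1 alone the first was 4.27 (adjusted p = 0.0876), and without in vivo 2-cell replicate 3 alone they were 3.54 (0.00322) and -2.91 (0.0214). The in vivo 4-cell libraries of the second step stood apart from all other embryo libraries in Dppa3 and from all other 4-cell and 8-cell embryos in mitochondrial reads, and with 8-cell in place of 4-cell embryos its difference was -2.84 (SE 1.07, adjusted p = 0.284).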

How the results depend on the processing

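Of 69 member calls, 66 were kept with a pseudocount of 0.1, 58 with no filter on low values, 63 with median-ratio scaling, 64 with nuclear reads only and 63 with 1 fit over all 20 groups, and no called value changed sign. Median-ratio scaling moved the median log2 fold change of all genes by over 0.1 in 38 of 48 comparisons (at most 0.72). With a pseudocount of 0.1, NTM against in vivo had 4 calls in place of 2. With no filter, which tests more genes, the NTC stage steps had 6 calls in place of 10 and NTC against in vivo 0 in place of 1. Both Zbed3 interactions were then lost (adjusted p = 0.176 and 0.0641), and 1 call of a member not tested otherwise was made at the NTM step from 4-cell to 8-cell, so that the NTM interactions had 1 call in place of 2. With median-ratio scaling and with nuclear reads only, NTC against in vivo had 0 calls and NTM against in vivo 1. One fit over all groups gave 18 further calls, with 5 in place of 1 for NTC against in vivo (Padi6 at the 1-cell stage among them, adjusted p = 0.0202), 4 in place of 2 for NTM against in vivo, and 1 in place of 0 for the NTC interactions. The cause of these changes was not tested, apart from the number of genes tested.

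With the replicate block, 66 of the 69 calls were kept, 3 were lost (Nlrp2 at the in vivo 4-cell to 8-cell step, adjusted p = 0.083, Khdc3 in NTM 1-cell embryos against MEF, 0.133, and Zbed3 at the NTM 1-cell to 2-cell interaction, 0.0754, which left 1 call there) and 1 was gained (Khdc3 at the in vivo 4-cell to 8-cell step, 0.0447). The numbers were not taken as a pairing, since same-numbered libraries correlated over 0.1 in all 3 numbers in 0 of 38 pair comparisons (range -0.18 to 0.12).

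Leaving out each library in turn, 53 of the 69 calls were kept throughout and 16 were lost at least once. The number of calls ranged from 8 to 10 for the in vivo steps, 7 to 10 for the NTC steps, 7 to 10 for the NTM steps, 0 to 4 for NTC against in vivo, 1 to 3 for NTM against in vivo, 2 to 2 for NTM against NTC, 20 to 21 for 1-cell embryos against blastulas and 12 to 13 against donor cells. Without replicate 1, 2 or 3 of every group both sets of interactions had 0 calls. Comparing 8-cell with 2-cell embryos in place of 4-cell embryos, an alternative chosen after seeing the data, kept all 17 member calls of the 2-cell to 4-cell step, added Khdc3 and Padi6 in NTM and Khdc3 in NTC (not tested with 4-cell embryos), and lost the Zbed3 interaction of that step (-2.84, adjusted p = 0.284). Leaving out single in vivo libraries that stood apart was also chosen after seeing the data, and the text gives its effect on the interactions. Calls lost and not named in the text were Nlrp2 at the in vivo 4-cell to 8-cell step (no filter), Tle6 at the NTC 2-cell to 4-cell step (pseudocount of 0.1, no filter, nuclear reads), Padi6 at that step and Ooep at the NTC and NTM morula to blastula steps (no filter), Tle6 in NTC against CC (all alternatives but nuclear reads and the block) and Khdc3 in NTM against MEF (1 fit over all groups). Values under 0.299 RPKM may rest on 3 reads or fewer.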
